A study of Mus musculus with 19 samples.

Results

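Freshly isolated hepatic stellate cells (HSCs) and HSCs kept in culture for 3 h were compared across the whole transcriptome, to describe how their RNA differed at the first time point after plating. Samples were chosen by culture time alone: the 2 samples with a culture time of 0 h (replicates 2 and 3) and the 3 samples with a culture time of 3 h (replicates 1, 2 and 3), 5 of the 19 samples of the culture course. Of 55487 gene identifiers in the count table, 15138 passed a filter on low counts and were tested.

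Male mice of the Balb/c strain, 23 to 24 weeks old and without liver injury or drug treatment, gave the cells, which were sorted on their ultraviolet fluorescence. Cells of the 0 h samples were collected straight after the sort. Cells of the 3 h samples were sorted into collagen-coated wells with Dulbecco's modified Eagle's medium, 10% fetal bovine serum, antibiotics and glutamine, so that the effects of plating, serum, collagen and elapsed time cannot be told apart. Each sample stands for 2 technical repeats, and RNA was read with QuantSeq, a library method that sequences the 3′ end of polyadenylated transcripts.

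HSCs are the vitamin A-storing pericytes of the liver sinusoid, and the stored retinyl esters give the fluorescence on which they were sorted. In an injured liver, or on a culture plate, they leave this resting state, lose their fat droplets and become contractile cells that deposit collagen. Early steps of such a transition are classically described as an immediate early response, in which transcription factor genes are switched on without new protein synthesis, followed by cytokine, stress and biosynthetic genes.

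The 5 libraries held 2073171 to 5094289 counts and 12278 to 13651 genes with at least 1 count. Replicate 3 at 0 h was the shallowest library. Levels are given as CPM, a gene's count relative to the total of its library, after scaling by the trimmed mean of M-values (TMM), with samples in the order replicates 2 and 3 at 0 h, then replicates 1, 2 and 3 at 3 h. Labelled cell identity was checked on 15 HSC marker genes, whose summed level was 34501 to 39971 CPM at 0 h and 34923 to 39840 CPM at 3 h. Dcn, which encodes the proteoglycan decorin, made up a large part of this sum, at 20177 and 18182 CPM, then 17260, 17219 and 21691 CPM. Of the 15 fitted fold changes 11 were below 0 and 4 above (median log2 -0.12), with 1 marker called lower and 0 higher. Hand2, a marker that was not called, had 495 to 531 CPM at 0 h and 81.3 to 90.2 CPM at 3 h. Of 11 lymphocyte markers 8, and of 9 neutrophil and monocyte markers 8, had no count in any of the 5 libraries.

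After 3 h, 844 genes (5.58% of those tested) differed by more than 2-fold at an adjusted p below 0.1 in edgeR's quasi-likelihood test with Benjamini-Hochberg adjustment. Upregulated genes made up 634 of them (4.19% of those tested) and downregulated genes 210 (1.39%). The median log2 fold change was 2.03 among the upregulated genes, -1.71 among the downregulated genes and 0.0 over all genes tested. In 837 of the 844 genes the 0 h and 3 h samples did not overlap, against 35.2% of all tested genes. Comparing samples with the same replicate number, 838 of the 844 moved the same way in replicate 2 and in replicate 3, and 692 did so by more than 2-fold in both. The genes were called on these same libraries, so the lack of overlap and this agreement follow largely from the call. They are not independent support, and the same holds for each called gene below whose samples did not overlap. The study describes independent repeats for each time point, but the labels do not say that the replicates are separate animals. The p-values therefore measure spread between samples, estimated from all 19 samples of the culture course. In bulk RNA, fewer cells of a type and less RNA per cell cannot be told apart. DESeq2 called 1006 genes higher and 589 lower, so that its share of higher calls was 63.1% against 75.1% here, and the count of lower genes fell to 85 without 0 h replicate 2, 112 without 0 h replicate 3 and 123 without 3 h replicate 2.

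**Figure D1:**
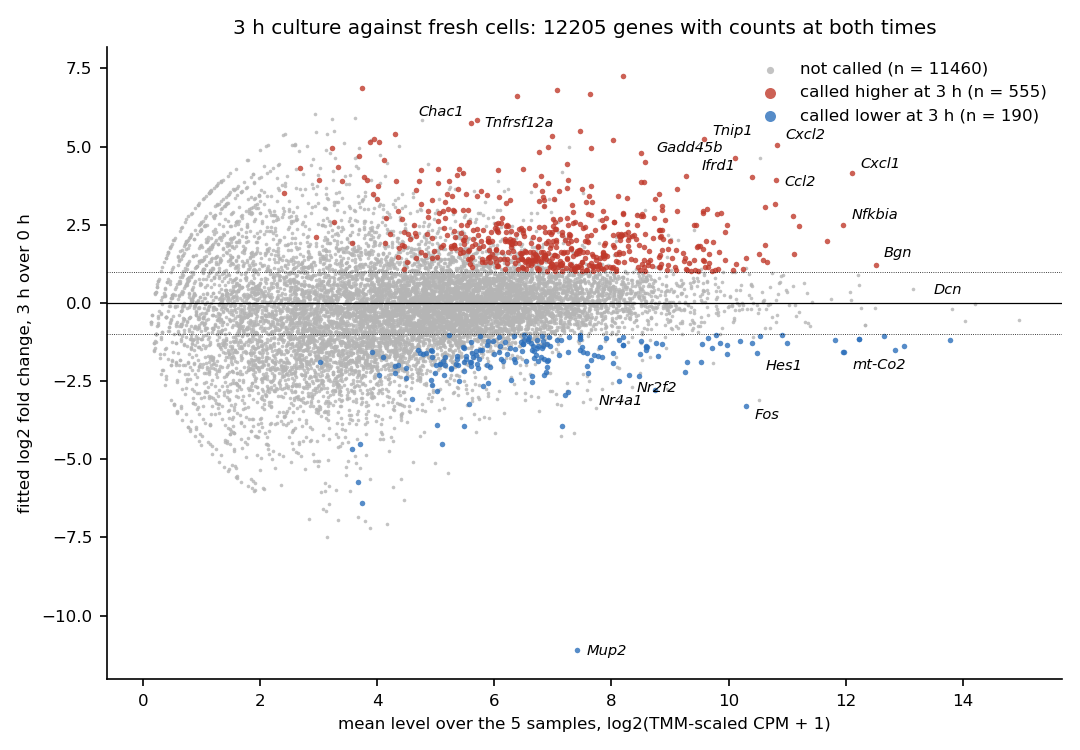
Fitted log2 fold change (3 h over 0 h, y axis) against mean level over the 5 samples (x axis, log2 of TMM-scaled CPM plus 1) for genes with counts at both times. Each point is a gene, red where called higher, blue where called lower. Dotted lines mark a 2-fold difference. Tnip1, Cxcl2, Gadd45b and Cxcl1 lie at the upper edge of the cloud, Fos and Mup2 at the lower edge, and Dcn near 0.

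Ifrd1, a transcriptional coregulator (ENSMUSG00000001627, chromosome 12 from 40201567 to 40248504 of GRCm38, minus strand), had the lowest p of all genes. Its level was 127 and 137 CPM at 0 h and 2189, 1876 and 2403 CPM at 3 h, a 16.4-fold difference (log2 4.03 ± 0.19 SE, adjusted p = 7.45e-09). Tnfrsf12a, the receptor for the cytokine TWEAK, was at 6.27 and 6.53 CPM before culture and at 243, 203 and 424 CPM after it (45.2-fold, adjusted p = 2.25e-07). Ereg, a ligand of the epidermal growth factor (EGF) receptor, rose 14.3-fold from 10.0 and 17.1 CPM to 184, 170 and 219 CPM. These 3 genes are among the 5 upregulated genes with the lowest p, so a gap between the groups follows from that choice. Tnfrsf12a ranged from 203 to 424 CPM at 3 h.

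Members of the 36 pathway lists were counted next. Each count is to be read against the shares over all tested genes, 4.19% higher and 1.39% lower. Lists of NF-kB genes, ATF4 targets, tRNA synthetases, chemokines, immediate early genes and ribosome biogenesis factors held the highest shares of upregulated members, and the genes encoded on the mitochondrial chromosome held the highest share of downregulated ones. In 4 lists, the cytosolic ribosomal proteins, integrins, cholesterol genes and lysosome genes, edgeR called 0 members in either direction. At an unadjusted p below 0.05 these 4 lists held 7, 2, 2 and 2 genes, and DESeq2 called 1 gene, of the cholesterol list. In the NF-kB, ATF4, tRNA synthetase and ribosome biogenesis lists 0 members were lower even at an unadjusted p below 0.05, and DESeq2 also called 0 of them lower.

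**Figure D2:**
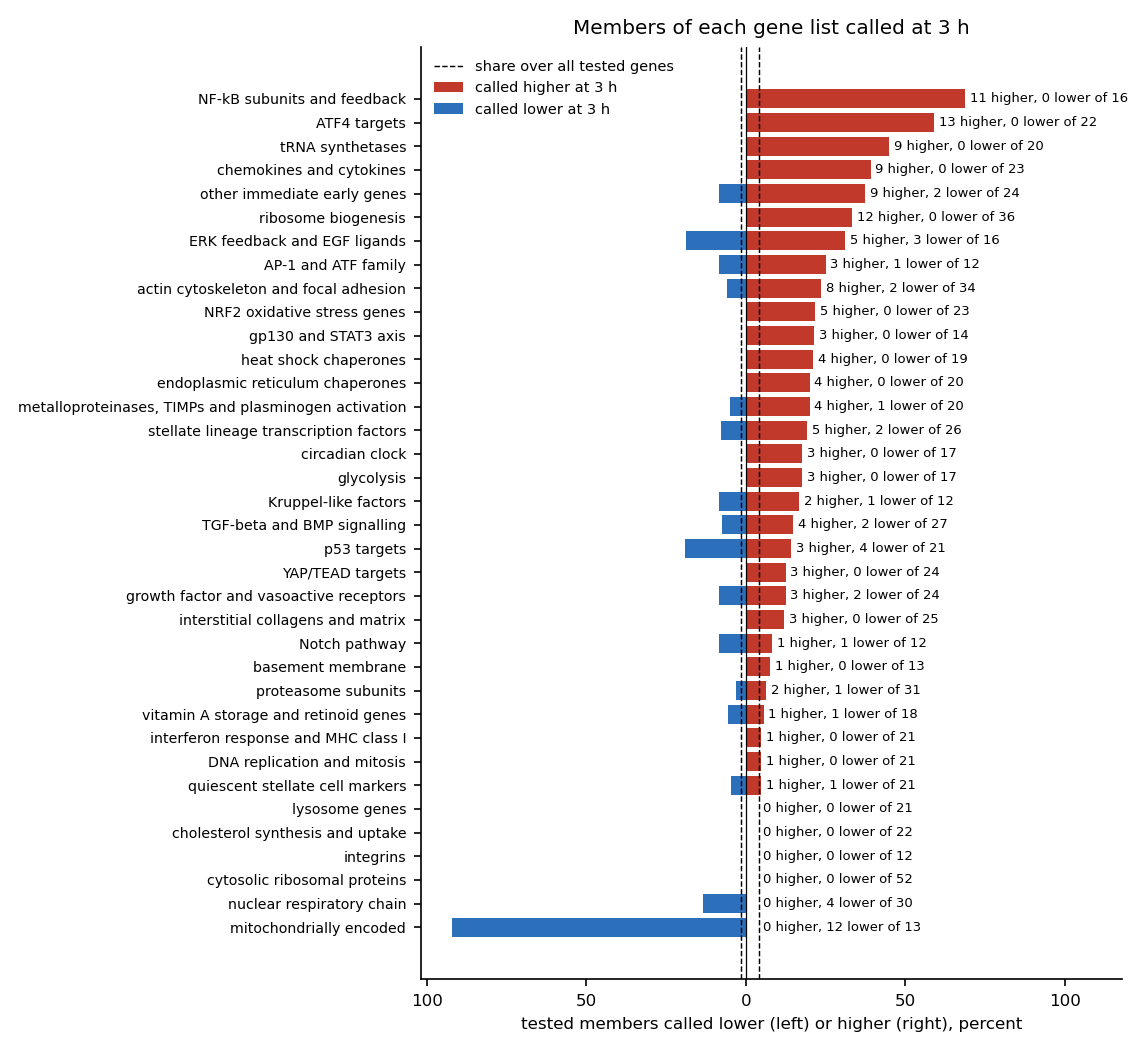
Share of tested members called higher (red, to the right) or lower (blue, to the left) at 3 h for each of the 36 pathway lists, in percent, with the counts beside each bar. Dashed lines mark the shares over all tested genes, 4.19% higher and 1.39% lower. The NF-kB list has 11 of 16 members higher and none lower, and the mitochondrially encoded list has 12 of 13 lower and none higher.

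NF-kB is a family of dimeric transcription factors held in the cytoplasm by inhibitor proteins until a signal destroys the inhibitor. Of 16 NF-kB subunit and feedback genes tested, 11 were higher at 3 h and 0 lower, and all 16 fitted fold changes were above 0 (median log2 2.57, or 2.47 with genes that had no count at 0 h set to their lower bound, against 0.0 over all genes). Among the subunits, Rela, the main activating subunit, stood at 120 and 111 CPM and then at 642, 804 and 735 CPM (6.29-fold, adjusted p = 3.67e-05). Rel rose from 16.5 and 23.6 CPM to 190, 228 and 183 CPM (10.0-fold, adjusted p = 0.00063). Nfkb1, whose product is cut to a DNA-binding subunit, went from 90.3 and 99.9 CPM to 331, 479 and 494 CPM (4.57-fold, adjusted p = 0.00249). For all 3 subunits every cultured sample lay above every fresh sample, and the groups likewise did not overlap in 837 of the 844 called genes.

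Inhibitors of the pathway rose with its subunits. Tnip1, a ubiquitin-binding protein that restrains NF-kB, had 23.8 and 43.7 CPM at 0 h against 1373, 1156 and 1231 CPM at 3 h (37.4-fold, log2 5.23 ± 0.43 SE, adjusted p = 3.96e-06). Tnfaip3, a ubiquitin-editing enzyme that ends NF-kB signalling, was at 13.5 and 7.03 CPM and then at 311, 237 and 432 CPM (31.1-fold, adjusted p = 0.00105). Nfkbib, a cytoplasmic inhibitor, rose 3.78-fold from 34.1 and 53.2 CPM to 151, 208 and 135 CPM (adjusted p = 0.00258). Nfkbia, the inhibitor best known as an NF-kB target, was already abundant at 1509 and 620 CPM and reached 6699, 6746 and 4373 CPM (5.58-fold, adjusted p = 0.00714). The inhibitors thus covered a wide range of starting levels, and for each the fresh and the cultured samples did not overlap. Nfkbie was at 10.8 and 26.6 CPM and then 56.1, 112 and 113 CPM, but its standard error was as wide as its change (log2 2.33 ± 2.17, adjusted p = 0.681).

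Chemokines, many of which are textbook NF-kB targets, formed the next group. Of 23 chemokine and cytokine genes tested, 9 were higher and 0 lower (median log2 2.97, or 2.83 with genes without counts at 0 h at their bound), and the number higher was 6 without 0 h replicate 2. Cxcl1, a neutrophil attractant, went from 363 and 428 CPM to 6240, 5964 and 9071 CPM (17.9-fold, log2 4.17 ± 0.50 SE, adjusted p = 9.96e-05). Cxcl2, its close relative, stood at 83.0 and 97.4 CPM and then at 2337, 3292 and 3237 CPM (32.8-fold, adjusted p = 0.000281). Ccl2, the main monocyte attractant, rose 15.3-fold from 220 and 154 CPM to 2559, 2400 and 3632 CPM (adjusted p = 5.38e-06). For all 3 the lowest cultured sample lay far above the highest fresh sample. The monocyte attractant Ccl7 (21.8-fold), the macrophage growth factor Csf1 (7.11-fold) and the membrane-bound chemokine Cxcl16 (7.63-fold) were also higher.

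Cxcl5, a neutrophil attractant, had 0 counts at 0 h and 57.1, 22.3 and 61.0 CPM at 3 h (at least 31.1-fold higher, adjusted p = 0.0291), and its call was lost without 0 h replicate 2 or 0 h replicate 3. The remaining called members were Il11 and Lif, cytokines of the IL-6 family (adjusted p = 0.0061 and 0.0796), which were low in every library. The inflammatory cytokines Il6, Tnf and Il1b did not pass the test. Il6 had 4.76 and 0 CPM at 0 h and 7.30, 0 and 0 CPM at 3 h, and Tnf had 14.8 and 0 CPM and then 21.9, 33.1 and 0 CPM. Il1b was at 65.2 and 94.4 CPM and then at 7.63, 18.2 and 26.8 CPM (log2 -2.18 ± 1.98 SE, adjusted p = 0.681). In the list of the IL-6 family pathway, which signals through the receptor chain gp130, 3 of 14 members were higher and 0 lower. Osmr, the oncostatin M receptor, rose 6.62-fold from 42.9 and 66.3 CPM to 315, 395 and 371 CPM (adjusted p = 7.57e-05). Stat3, the transcription factor at the end of this pathway, rose 5.59-fold from 208 and 326 CPM to 1361, 1512 and 1602 CPM (adjusted p = 0.000118). Socs3, its feedback inhibitor, was at 1753 and 1287 CPM before culture and at 406, 408 and 394 CPM after it (log2 -1.92 ± 0.96 SE, adjusted p = 0.37).

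Promoters of 3 strongly raised genes of these lists are shown because they hold the letters to which NF-kB is known to bind. Each runs from 250 bases before to 50 bases after the RefSeq start, 5′ to 3′ on the gene's strand, with the match in capitals, at chr11:54962891-54963190 (minus strand) for Tnip1, chr5:90890995-90891294 (plus) for Cxcl1 and chr5:90903649-90903948 (plus) for Cxcl2 on GRCm38.
Tnip1: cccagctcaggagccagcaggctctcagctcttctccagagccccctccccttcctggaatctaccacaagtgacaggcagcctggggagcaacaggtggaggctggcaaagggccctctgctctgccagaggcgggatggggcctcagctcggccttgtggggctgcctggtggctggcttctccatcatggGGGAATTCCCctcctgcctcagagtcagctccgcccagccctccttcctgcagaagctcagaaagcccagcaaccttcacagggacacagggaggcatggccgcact
Cxcl1: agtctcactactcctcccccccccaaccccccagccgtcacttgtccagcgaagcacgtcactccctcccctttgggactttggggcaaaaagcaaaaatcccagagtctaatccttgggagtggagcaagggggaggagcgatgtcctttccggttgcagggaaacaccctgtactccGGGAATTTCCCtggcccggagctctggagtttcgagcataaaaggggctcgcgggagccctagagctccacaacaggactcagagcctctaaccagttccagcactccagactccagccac
Cxcl2: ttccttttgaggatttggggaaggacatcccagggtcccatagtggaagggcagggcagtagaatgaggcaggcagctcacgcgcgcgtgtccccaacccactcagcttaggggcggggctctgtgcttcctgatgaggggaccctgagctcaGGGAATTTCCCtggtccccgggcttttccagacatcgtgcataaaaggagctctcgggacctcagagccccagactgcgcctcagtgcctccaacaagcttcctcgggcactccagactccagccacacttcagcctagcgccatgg
Capitals mark GGGANTTCC in Tnip1 and, in Cxcl1 and Cxcl2, a 10-letter form with a further N after the first N. Each run holds overlapping matches on both strands. The 9-letter motif GGGANTTCC, searched on both strands, was in 1.92% of all 27025 promoters, 2.62% of those of tested genes, 4.03% of the 496 upregulated genes with a promoter and 2.03% of the 148 downregulated ones. It was in 4 of the 8 upregulated NF-kB list genes that had a promoter, namely Nfkb2, Rel, Tnfaip3 and Tnip1. It was in 0 of the 5 promoters of upregulated chemokine and cytokine genes. The 10-letter form, chosen after the changes were known, was in 1.63% of all promoters and 1.76% of those of tested genes. It was in 3.43% of those of upregulated genes and 0.676% of those of downregulated genes. Of the 5 promoters of upregulated chemokine and cytokine genes, 3 held the 10-letter form (Csf1, Cxcl1 and Cxcl2). These are matches of letters, and binding was not measured.

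ATF4 is the transcription factor of the integrated stress response, made when translation is slowed by amino acid shortage or other stress, and its targets import and make amino acids. Of 22 ATF4 list genes tested, 13 were higher and 0 lower (median log2 2.42, or 2.18 with genes without counts at 0 h at their bound). Atf4 itself was at 183 and 120 CPM and then at 1327, 1097 and 1055 CPM (7.65-fold, log2 2.94 ± 0.29 SE, adjusted p = 1.48e-05). Its partner in stress signalling, Ddit3, rose 5.37-fold from 79.7 and 46.7 CPM to 343, 333 and 347 CPM (adjusted p = 0.00212). Chac1, a glutathione-degrading enzyme, was close to absent at 0.752 and 2.51 CPM and reached 70.7, 67.4 and 113 CPM (57.2-fold, adjusted p = 3.7e-05). Sesn2, a sestrin that restrains growth signalling, went from 2.51 and 0 CPM to 86.3, 78.4 and 71.0 CPM (adjusted p = 0.000424). Chac1 and Sesn2 were thus almost silent before culture and measured in every library after it.

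Transporters and a folate enzyme of the list were also higher. Both chains of the large neutral amino acid exchanger were higher: Slc3a2 went from 222 and 170 CPM to 1150, 1739 and 1401 CPM (7.29-fold), and Slc7a5 from 5.27 and 2.01 CPM to 46.8, 59.9 and 67.7 CPM (15-fold, adjusted p = 2.78e-05). Slc7a1, the cationic amino acid carrier, rose 5.79-fold, and Mthfd2, the mitochondrial folate enzyme, rose 19-fold from 1.25 and 11 CPM to 111, 116 and 90.2 CPM. The asparagine and serine synthesis genes were low: Asns stood at 0 and 4.02 CPM and then at 0, 8.63 and 9.15 CPM (adjusted p = 0.465), and Psat1 at 1.0 and 6.53 CPM and then at 27.9, 8.39 and 3.27 CPM (adjusted p = 0.221).

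tRNA synthetases, which load amino acids onto tRNAs and are known ATF4 targets in part, had 9 of 20 members higher and 0 lower (median log2 1.49). Cars, for cysteine, rose 12.9-fold from 18.1 and 19.1 CPM to 241, 296 and 181 CPM (adjusted p = 1.18e-05). Nars, for asparagine, rose 4.59-fold and Eprs, for glutamate and proline, 3.19-fold. Tars, for threonine, went from 62.4 and 90.4 CPM to 164, 261 and 260 CPM (2.99-fold, adjusted p = 0.00166). In each of these 4 genes the fresh and the cultured samples did not overlap.

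Promoters of Chac1, Trib3 and Tars are shown because they hold the amino acid response motif TGATGNAA, to which ATF4 with a C/EBP partner is known to bind. They lie at chr2:119350992-119351291 (plus strand), chr2:152344011-152344310 (minus) and chr15:11399609-11399908 (minus) of GRCm38, with the match in capitals. Here it reads on the opposite strand in all 3.
Chac1: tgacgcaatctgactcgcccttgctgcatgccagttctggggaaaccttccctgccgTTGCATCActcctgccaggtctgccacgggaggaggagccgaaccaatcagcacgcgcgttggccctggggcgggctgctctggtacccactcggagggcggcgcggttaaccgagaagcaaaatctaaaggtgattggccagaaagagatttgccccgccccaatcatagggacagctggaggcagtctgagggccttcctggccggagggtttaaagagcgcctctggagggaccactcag
Trib3: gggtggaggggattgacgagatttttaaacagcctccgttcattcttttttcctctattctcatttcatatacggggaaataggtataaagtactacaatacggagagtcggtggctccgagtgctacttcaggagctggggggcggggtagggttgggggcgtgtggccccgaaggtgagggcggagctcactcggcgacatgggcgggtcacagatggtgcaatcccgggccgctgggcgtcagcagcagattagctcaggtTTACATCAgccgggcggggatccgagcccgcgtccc
Tars: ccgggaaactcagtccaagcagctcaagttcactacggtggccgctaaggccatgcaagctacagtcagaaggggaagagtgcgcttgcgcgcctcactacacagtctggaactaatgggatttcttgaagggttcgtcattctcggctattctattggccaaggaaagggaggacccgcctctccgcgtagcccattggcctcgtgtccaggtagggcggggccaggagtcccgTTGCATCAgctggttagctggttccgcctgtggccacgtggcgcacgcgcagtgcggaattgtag
Trib3, a pseudokinase that feeds back on ATF4, had 0 counts in both 0 h libraries and 13.6, 24.7 and 29.6 CPM at 3 h, at least 15-fold higher (adjusted p = 0.0547; the bound sets the 0 h level at 3 counts in the shallower library). The motif, chosen after the changes were known, was in 4.51% of all promoters, 2.82% of those of tested genes, 4.23% of those of upregulated genes and 0.676% of those of downregulated genes. It was in 4 of the 7 upregulated tRNA synthetase genes with a promoter (Aars, Gars, Tars and Yars) and in 2 of the 12 upregulated ATF4 list genes (Chac1 and Trib3). For the motifs of other pathways, the AP-1 letters TGANTCA were in 9.07% of promoters of upregulated genes, against 6.13% of those of tested genes and 8.97% of all promoters. The cyclic AMP response letters TGACGTCA were in 6.85%, against 3.57% and 2.03%, and the NRF2 letters TGACNNNGC in 22.4%, against 16.8% and 14%. The CArG box was in 2.22%, against 1.54% and 1.81%, and at least 2 matches of the heat shock letters GAANNTTC in 0 of 496, against 0.196% and 0.407%.

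**Figure D3:**
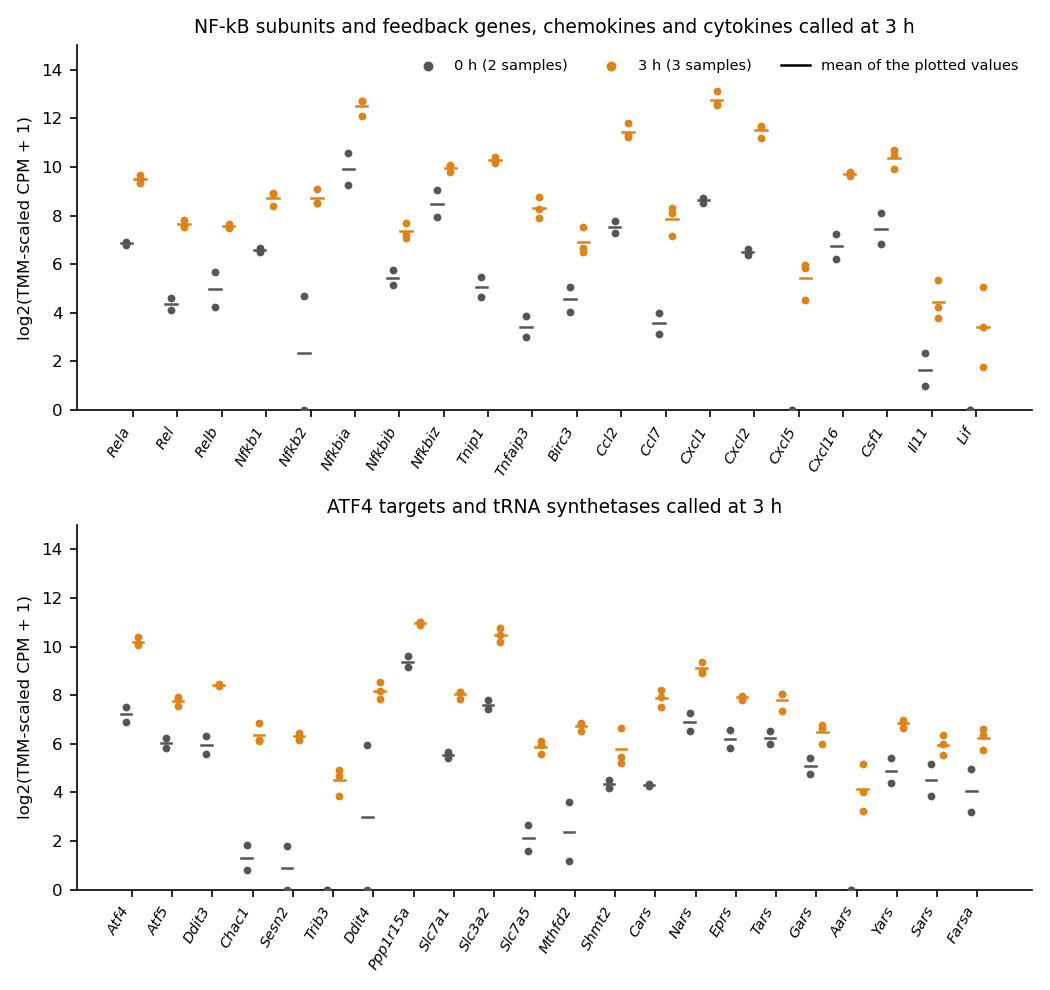
Level of each gene in each sample (y axis, log2 of TMM-scaled CPM plus 1) for upregulated NF-kB, chemokine and cytokine genes (top) and upregulated ATF4 targets and tRNA synthetases (bottom). Grey points are the 2 samples at 0 h, orange points the 3 samples at 3 h, and short lines the mean of the plotted values. Orange points lie above grey ones for every gene shown, from Cxcl1 at the top of the range to Trib3 near the floor.

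Ribosome biogenesis factors, which process ribosomal RNA in the nucleolus, had 12 of 36 members higher and 0 lower (median log2 1.17). Ncl, the abundant nucleolar protein nucleolin, rose 3.33-fold from 306 and 322 CPM to 1027, 1120 and 996 CPM (log2 1.74 ± 0.19 SE, adjusted p = 3.22e-05). Ddx21, a nucleolar helicase, rose 5.65-fold from 156 and 209 CPM to 1096, 1193 and 804 CPM (adjusted p = 1.11e-05). Gnl3, nucleostemin, rose 4.65-fold, Nop58 of the small nucleolar ribonucleoproteins 5.56-fold, and Tsr1, which acts in small subunit assembly, 12.0-fold. Of the 52 genes of the cytosolic ribosomal proteins themselves, 0 were called in either direction by edgeR or DESeq2 and 7 had an unadjusted p below 0.05, with fitted log2 fold changes from -0.78 to 0.71 and a median of 0.06.

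Immediate early genes split in both directions. Fos, the founding member of the AP-1 family (chromosome 12 from 85473890 to 85477273), was at 3189 and 2287 CPM in the fresh cells and at 260, 247 and 327 CPM after 3 h, 9.85-fold lower (log2 -3.30 ± 0.35 SE, adjusted p = 2.54e-05). Btg2, an antiproliferative early gene, fell 3.67-fold from 1693 and 915 CPM to 377, 295 and 394 CPM (adjusted p = 0.000905). Dusp1, the phosphatase that ends MAP kinase signalling, fell 3.72-fold from 1321 and 897 CPM to 238, 251 and 405 CPM (adjusted p = 0.00492). In all 3 genes both fresh samples lay above all cultured samples.

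Other AP-1 and early genes of the fresh cells were not called. Jun was at 3651 and 2724 CPM and then at 1926, 2101 and 2218 CPM (log2 -0.61 ± 0.21 SE, adjusted p = 0.147). Junb gave a log2 fold change of -0.73 ± 0.26 (SE, adjusted p = 0.155), Egr1 of -0.33 ± 0.38 (adjusted p = 0.775) and Fosb of -0.46 ± 0.69 (adjusted p = 0.856). Of the 12 AP-1 and ATF family members tested, 3 were higher and 1, Fos, was lower.

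A further set of early genes was higher. Of 24 other immediate early genes tested, 9 were higher and 2 lower, and 5 were higher without 0 h replicate 3. The lower genes were Btg2 and Nr4a1, an orphan nuclear receptor, which had 1161 and 597 CPM and then 105, 116 and 157 CPM (6.96-fold lower, adjusted p = 0.0928). The call of Nr4a1 was lost when any of the 5 libraries was left out and, with the replicate number as a block, 1 gene of the list was lower. Gadd45b, a stress sensor and textbook NF-kB target, rose 24.6-fold from 98.5 and 46.7 CPM to 1829, 1726 and 1833 CPM (log2 4.62 ± 0.43 SE, adjusted p = 9.7e-06). Trib1, a pseudokinase, rose 8.56-fold from 112 and 55.7 CPM to 818, 870 and 473 CPM (adjusted p = 9.96e-05). Maff, a small Maf factor, reached 317, 315 and 315 CPM from 50.1 and 17.1 CPM (9.27-fold, adjusted p = 0.000125), and its relative Mafk rose 6.94-fold. Jdp2, a repressor of AP-1, had 0 counts in both fresh libraries and 72.0, 61.1 and 81.0 CPM at 3 h, at least 47.4-fold higher (adjusted p = 1.72e-06).

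Ligands and feedback genes of the EGF receptor pathway had 5 of 16 members higher and 3 lower, the latter 1 without 0 h replicate 2. Besides Ereg, the ligand Hbegf rose 13.5-fold from 7.02 and 17.6 CPM to 207, 131 and 150 CPM (adjusted p = 0.000267). Errfi1, an intracellular inhibitor of the receptor, rose 7.40-fold from 149 and 165 CPM to 999, 1174 and 1312 CPM (adjusted p = 0.00101). The dual-specificity phosphatase Dusp8 rose 16.8-fold while Dusp1 fell. Klf6, a Krüppel-like factor known as an early marker of HSC activation, rose 3.91-fold (188 and 183 CPM, then 586, 809 and 780 CPM, adjusted p = 0.000897).

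Genes encoded on the mitochondrial chromosome fell as a group. All 13 fitted fold changes were below 0 (median log2 -1.19), 12 of 13 were called lower, and their combined share of all counts went from 8.22% and 7.98% at 0 h to 3.98%, 3.04% and 3.03% at 3 h. mt-Co2, a subunit of cytochrome c oxidase, was at 7381 and 5955 CPM and then at 2308, 2122 and 2281 CPM (2.98-fold lower, log2 -1.58 ± 0.18 SE, adjusted p = 4.68e-05). mt-Nd1, of complex I, fell 2.62-fold from 13375 and 12451 CPM to 5598, 4096 and 5090 CPM (adjusted p = 6.47e-05), and mt-Nd4 fell 2.87-fold from 11922 and 12167 CPM to 5117, 3636 and 3857 CPM. The light-strand gene mt-Nd6 fell 3.11-fold, as did the heavy-strand genes within a range of 1.65-fold (mt-Co3, log2 -0.72 ± 0.16, not past the 2-fold limit) to 2.98-fold.

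The number of these genes called depended on single libraries. It was 4 without 0 h replicate 2, 8 without 0 h replicate 3, and 11, 6 and 7 without 3 h replicates 1, 2 and 3. Of the nuclear copies of mitochondrial sequence, Gm28661 on chromosome 1 had nearly the same values as mt-Co2 (7301 and 5888 CPM at 0 h where mt-Co2 had 7381 and 5955 CPM), as did Gm10925 beside mt-Atp6, so reads of these pairs cannot be told apart. Copies of mt-Co1, mt-Co3 and mt-Nd5 were lower than their counterparts in every library, with Gm28439 at 1140 and 1190 CPM at 0 h beside 7850 and 5640 CPM for mt-Co3. Among 30 nuclear genes of the respiratory chain, 4 were lower and 0 higher (median log2 -0.55), and 2 were lower without 0 h replicate 2 or without 3 h replicate 2. Cox7c, a cytochrome c oxidase subunit, fell 2.60-fold from 567 and 646 CPM to 208, 216 and 276 CPM (adjusted p = 0.0131).

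**Figure D4:**
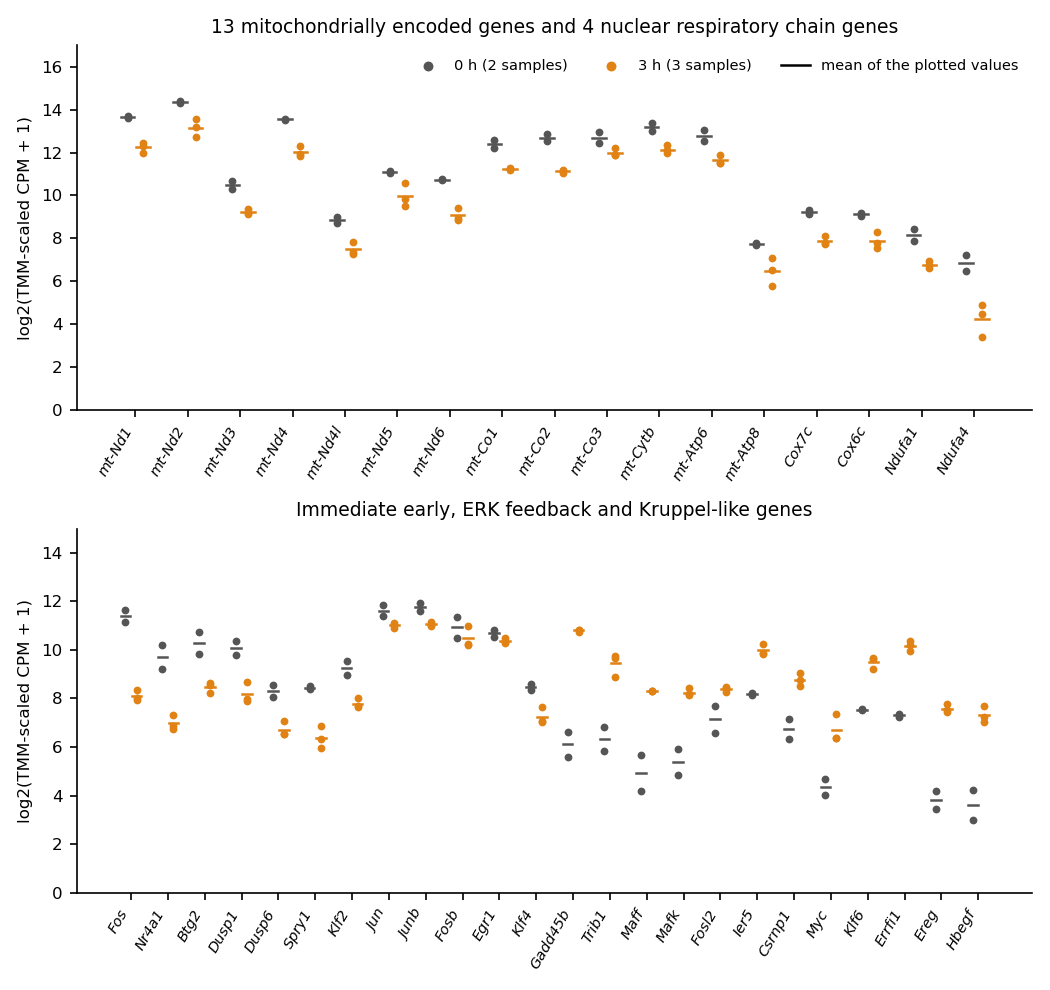
Level of each gene in each sample (y axis, log2 of TMM-scaled CPM plus 1) for the 13 mitochondrially encoded genes with 4 nuclear respiratory chain genes (top) and for immediate early, EGF receptor feedback and Krüppel-like genes (bottom). Grey points are 0 h samples, orange points 3 h samples and short lines the mean of the plotted values. Grey lies above orange across the top panel, while the bottom panel runs from genes that were lower at 3 h (Fos, Btg2, Dusp1) through uncalled ones (Jun, Junb, Egr1) to higher ones (Gadd45b, Maff, Ereg).

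Protein and redox stress genes were raised in part. Among 19 heat shock genes, 4 were higher and 0 lower (7 higher without 3 h replicate 3). Hsp90aa1, the inducible cytosolic chaperone, rose 3.86-fold from 311 and 315 CPM to 1174, 1395 and 1061 CPM (adjusted p = 0.000151), and the co-chaperones Bag3 and Dnajb4 rose 4.0-fold and 3.50-fold. Of 23 genes under the antioxidant factor NRF2, 5 were higher and 0 lower. Hmox1, heme oxygenase, rose 6.41-fold from 25.6 and 40.2 CPM to 204, 233 and 190 CPM (adjusted p = 0.000156), the metallothionein Mt2 6.89-fold and thioredoxin reductase Txnrd1 4.01-fold. Nqo1, the classical NRF2 target, had 0 CPM at 0 h and 7.63, 5.51 and 0 CPM at 3 h (adjusted p = 0.332). Of 20 chaperones and sensors of the endoplasmic reticulum 4 were higher, a number that was 1 without 0 h replicate 2 and 2 without 0 h replicate 3.

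Part of the glycolysis list passed the test. Of 17 glycolysis genes 3 were higher and 0 lower, against 4.19% and 1.39% of all genes tested (6 higher without 3 h replicate 3). Pfkfb3, which makes the activator of phosphofructokinase, rose 9.82-fold from 18.3 and 18.1 CPM to 178, 200 and 159 CPM (adjusted p = 5.38e-06), and the hexokinase Hk2 rose 4.56-fold from 37.4 and 41.7 CPM to 196, 243 and 101 CPM (adjusted p = 0.000729). The glucose carrier Slc2a1 was the other called member (4.53-fold, adjusted p = 0.0095), and its call was lost without 0 h replicate 2. Of the 22 genes of cholesterol synthesis and uptake, edgeR called 0 and DESeq2 called 1.

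Of 34 actin cytoskeleton and focal adhesion genes, 8 were higher and 2 lower, and the smooth muscle actin that marks activated HSCs was not called. Tubb6, a beta-tubulin, rose 10.7-fold from 39.1 and 42.2 CPM to 438, 370 and 496 CPM (adjusted p = 1.81e-06). Tropomyosin Tpm1 rose 3.50-fold from 211 and 360 CPM to 949, 863 and 1175 CPM (adjusted p = 0.000148), and the actin cross-linker Lima1 4.99-fold. The lower genes both encode actin-binding proteins. Pfn1, profilin, fell 3.40-fold from 230 and 121 CPM to 40.5, 62.1 and 52.5 CPM (adjusted p = 0.0302), a call lost without 0 h replicate 2 or 3 h replicate 1. Cnn2, a calponin, fell 2.13-fold from 145 and 136 CPM to 67.0, 46.3 and 83.9 CPM (adjusted p = 0.0271), a call lost without 0 h replicate 2 or 3 h replicate 2. Acta2, the smooth muscle actin of myofibroblasts, was at 51.7 and 138 CPM and then at 90.9, 76.9 and 111 CPM (log2 -0.02 ± 0.42 SE, adjusted p = 1.0), with overlapping groups.

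Of 25 interstitial matrix genes 3 were higher and 0 lower, and 1 was higher without 0 h replicate 2. Bgn, the proteoglycan biglycan, was the member called in every alternative that left out a library, at 3222 and 3352 CPM and then 7834, 8052 and 6741 CPM (2.29-fold, adjusted p = 0.00226). Col1a1 had 161 and 447 CPM and then 209, 301 and 376 CPM (log2 -0.04 ± 0.36 SE, adjusted p = 1.0), and Col3a1 had 1932 and 2067 CPM and then 563, 839 and 1422 CPM (log2 -1.09 ± 0.35 SE, adjusted p = 0.108). Lox, a collagen cross-linking enzyme, was at 5.27 and 12.6 CPM and then at 12.9, 15.1 and 4.79 CPM (adjusted p = 0.971). Of the 12 integrin genes, 0 were called by edgeR or DESeq2, with 2 at an unadjusted p below 0.05.

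Among proteases and their inhibitors, 4 of 20 were higher and 1 lower, against 4.19% and 1.39% of all genes tested. In the TGF-beta and BMP list 4 of 27 genes were higher and 2 lower, the latter 1 without 0 h replicate 2, 0 h replicate 3 or 3 h replicate 1. The ligand Tgfb2 rose 19.4-fold from 8.53 and 6.03 CPM to 151, 116 and 161 CPM (adjusted p = 0.00332), Inhba, an activin subunit, 3.10-fold, and Skil, a feedback repressor of SMAD factors, 4.80-fold from 39.6 and 34.1 CPM to 202, 150 and 180 CPM (adjusted p = 0.000368). Of 24 targets of the mechanosensitive factor YAP, 3 were higher and 0 lower, against the same shares of all genes tested. The YAP targets most used as markers were not called, since Ccn2 had 114 and 384 CPM and then 499, 426 and 724 CPM (adjusted p = 0.193) and Ankrd1 had 7.52 and 58.2 CPM and then 26.2, 24.0 and 18.5 CPM (adjusted p = 0.779).

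Most markers of quiescent HSCs were not called. Of 21 tested, 17 fitted fold changes were below 0 (median log2 -0.79). Calls were 1 lower and 1 higher, against 1.39% and 4.19% of all genes tested. The number higher was 0 without 0 h replicate 2, 0 h replicate 3 or 3 h replicate 2 and 2 without 3 h replicate 3, and the number lower was 2 without 0 h replicate 3. The called lower gene was Lhx2, a homeobox factor needed to hold HSCs in their resting state, which fell 3.76-fold from 537 and 391 CPM to 74.3, 123 and 172 CPM (log2 -1.91 ± 0.36 SE, adjusted p = 0.00455). Ntm, a neural adhesion protein, was at 1679 and 1024 CPM and then at 725, 1286 and 743 CPM (adjusted p = 0.397), and Mapt, the tau protein, at 828 and 865 CPM and then at 381, 416 and 470 CPM (log2 -1.0 ± 0.39 SE, adjusted p = 0.208). Ngfr and Gfap were not called either (adjusted p = 0.823 and 0.921), and Gfap had no count in 1 library of each group.

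Most vitamin A genes were not called, with 1 of 18 higher and 1 lower, against 4.19% and 1.39% of all genes tested. Rdh10, which oxidizes retinol on the way to retinoic acid, rose 8.73-fold from 24.3 and 32.1 CPM to 243, 272 and 223 CPM (adjusted p = 0.00439). The lower gene was Rxra, a retinoid receptor, which fell 2.61-fold from 219 and 171 CPM to 75.0, 77.9 and 71.7 CPM (adjusted p = 0.0331), a call lost without 0 h replicate 2 and without any of the 3 h replicates. Lrat, which esterifies retinol for storage, was at 1074 and 735 CPM and then at 467, 651 and 433 CPM (log2 -0.81 ± 0.78 SE, adjusted p = 0.696).

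Of 26 transcription factors of the stellate lineage and of activation, 5 were higher and 2 lower. Nr2f2, a nuclear receptor of mesenchymal cells (chromosome 7 from 70351944 to 70366735), fell 4.98-fold from 607 and 597 CPM to 141, 108 and 114 CPM (log2 -2.32 ± 0.42 SE, adjusted p = 0.00312). Ets2 rose 4.99-fold from 135 and 132 CPM to 637, 708 and 654 CPM (adjusted p = 2.19e-05), Ets1 2.69-fold and Mef2d 5.82-fold. Rbpj, the DNA-binding partner of Notch, rose 2.90-fold (adjusted p = 0.00132). Cdkn1a, the cell cycle inhibitor of the p53 list, rose 9.94-fold from 74.2 and 59.3 CPM to 814, 646 and 535 CPM (adjusted p = 1.25e-05). In that list 3 of 21 genes were higher and 4 lower. Without 0 h replicate 2 these counts were 5 and 1, and 2 were lower without 0 h replicate 3, without 3 h replicate 3 or with the replicate number as a block. Of 21 replication and mitosis genes 1 was higher, a share near the 4.19% of all genes tested, and 13 had no count at 0 h. That call depended on single libraries, and 0 genes were higher without 3 h replicate 1 or 3 h replicate 3.

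Genes without a count at 1 of the times formed a set of their own. In 79 of the 634 upregulated genes both 0 h libraries had 0 counts, and in 20 of the 210 downregulated genes all 3 h libraries had 0 counts. Such fold changes are lower bounds, taken against 3 counts in the shallowest library of the group, 1.51 CPM at 0 h and 0.995 CPM at 3 h. They describe the counts as deposited, and whether a 0 stands for absent RNA or for how reads were assigned to genes before deposit was not tested. Ppme1, which demethylates a protein phosphatase, had 244, 236 and 201 CPM at 3 h, at least 151-fold higher (adjusted p = 7.45e-09). Olr1, a scavenger receptor for oxidized lipoprotein, had 92.9, 130 and 142 CPM, at least 80.8-fold higher (adjusted p = 4.72e-05). Supt16, a subunit of the histone chaperone FACT, had 73.6, 114 and 62.3 CPM, at least 55.3-fold higher, and Flvcr1, a heme exporter, 75.3, 67.6 and 71.2 CPM, at least 47.4-fold higher. These 4 genes kept their call when any single library was left out.

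In the other direction, Snx24, a sorting nexin, had 25.8 and 39.7 CPM at 0 h and 0 counts at 3 h, at least 32.9-fold lower (adjusted p = 1.11e-05). Rad50, of the double-strand break repair complex, had 35.6 and 51.7 CPM at 0 h, at least 43.9-fold lower (adjusted p = 0.0163), and Dtymk, thymidylate kinase, 74.0 and 15.6 CPM, at least 45.0-fold lower (adjusted p = 0.000174). G0s2, an inhibitor of triglyceride breakdown, was measured at both times and fell 15.4-fold from 358 and 288 CPM to 17.6, 13.7 and 31.6 CPM (adjusted p = 0.00284). From 6 h on Ppme1 had means of 173 to 237 CPM, Supt16 of 102 to 166 CPM, Snx24 of 19.3 to 60.1 CPM and Dtymk of 13.7 to 50.9 CPM. Thus 0 counts in every library of a time were seen at 0 h alone for Ppme1 and Supt16 and at 3 h alone for Snx24 and Dtymk. For these genes read assignment before deposit was not tested as a source. Rad50 had 0 counts at 3 h and in part of the 6 h libraries, with means of 6.83 CPM at 6 h and 12.9 to 49.1 CPM afterwards.

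Markers of other liver cells moved with culture as well. The summed level of 15 hepatocyte markers was 4748 and 9464 CPM at 0 h and 618, 563 and 1683 CPM at 3 h, and all 15 fitted fold changes were below 0 (median log2 -2.84). Only Apoa1 was called by edgeR, at 295 and 337 CPM and then 19.6, 33.3 and 77.3 CPM (7.28-fold lower, adjusted p = 0.0117), and its call was lost without 0 h replicate 3. Alb was at 1813 and 4447 CPM and then at 213, 260 and 610 CPM (log2 -3.12 ± 1.22 SE, adjusted p = 0.215). Mup2, a major urinary protein made in hepatocytes and among the lowest fold changes of all, had 387 and 455 CPM and then 0, 0 and 0.436 CPM (adjusted p = 0.0474). Its call was lost when any of the 5 libraries was left out. The part of hepatocyte RNA in the downregulated genes was not tested.

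Sinusoidal endothelial markers had a summed level of 2176 and 1591 CPM at 0 h and 7762, 3157 and 2450 CPM at 3 h. Replicate 1 at 3 h was highest, with Stab2 at 589 CPM against 204 and 143 CPM in the other 3 h libraries. Of 15 fitted fold changes of these markers, 13 were above 0 and 2 below (median log2 0.98). Calls were 1 higher and 0 lower, against 4.19% and 1.39% of all genes tested. Bmp2, which endothelial cells make, was the marker called higher (2.59-fold, adjusted p = 0.00924). Its call was lost without 0 h replicate 3, and the part of endothelial RNA in its change was not tested. Kupffer cell markers summed to 681 and 587 CPM and then to 621, 338 and 408 CPM, with 0 of 14 called by edgeR, 0 at an unadjusted p below 0.05 and 0 called by DESeq2. Cholangiocyte and mesothelial markers summed to at most 34.6 and 3.51 CPM in any library.

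Gene programs that the study defined were counted in the same fit, again beside 4.19% higher and 1.39% lower over all genes tested. Of 72 initiatory genes tested, which the study chose partly on these culture samples so that the count is not independent evidence of direction, 39 were higher and 0 lower (median log2 3.37, or 2.55 at the bounds), and 24 were higher without 0 h replicate 2. Il17ra, the interleukin-17 receptor, was at 5.01 and 7.53 CPM and then at 196, 217 and 172 CPM (31.6-fold, adjusted p = 1.7e-06). B4galt5, a galactosyltransferase, rose 12.4-fold, and Cd44, the hyaluronan receptor, 5.31-fold from 19.3 and 29.6 CPM to 94.5, 97.6 and 194 CPM (adjusted p = 0.00107). Of the fibrogenic program, drawn from mice with chronic carbon tetrachloride injury, 142 of 173 genes were tested, with 36 higher and 0 lower (median log2 1.12, or 0.67 at the bounds), and 20 higher without 0 h replicate 2. The study formed the initiatory program by intersecting genes raised in culture with a program found a day after a single carbon tetrachloride injection. It also reports initiatory genes within the fibrogenic program, so the counts of these programs overlap and are not independent of one another. Of the 356 genes tested from the single-injection program, initiatory genes included, 57 were higher and 2 lower, against 4.19% and 1.39% of all genes tested. Without 0 h replicate 2 these counts were 37 and 6, without 0 h replicate 3 the lower count was 1, and DESeq2 called 9 lower.

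Levels at the later times show how long the differences of 3 h lasted, as a description without a test. Tnip1 had a mean of 1253 CPM at 3 h (n = 3), 293 CPM at 6 h (n = 3) and 70.6 CPM at 96 h (n = 3), and Gadd45b had 1796, 279 and 38.1 CPM at these times. Both were therefore at their highest mean of the course at 3 h. Chac1 went on from 83.8 CPM at 3 h to 517 CPM at 6 h, and Klf6 from 725 to 1983 CPM. Fos continued to fall, from 278 CPM at 3 h to 62.6 CPM at 6 h and 2.36 CPM at 24 h (n = 2). mt-Co2 was at 2237 CPM at 3 h and between 1185 and 1884 CPM from 6 h on. Ankrd1, at 22.9 CPM at 3 h, reached a mean of 755 CPM at 6 h and 4463 CPM at 12 h.

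**Figure D5:**
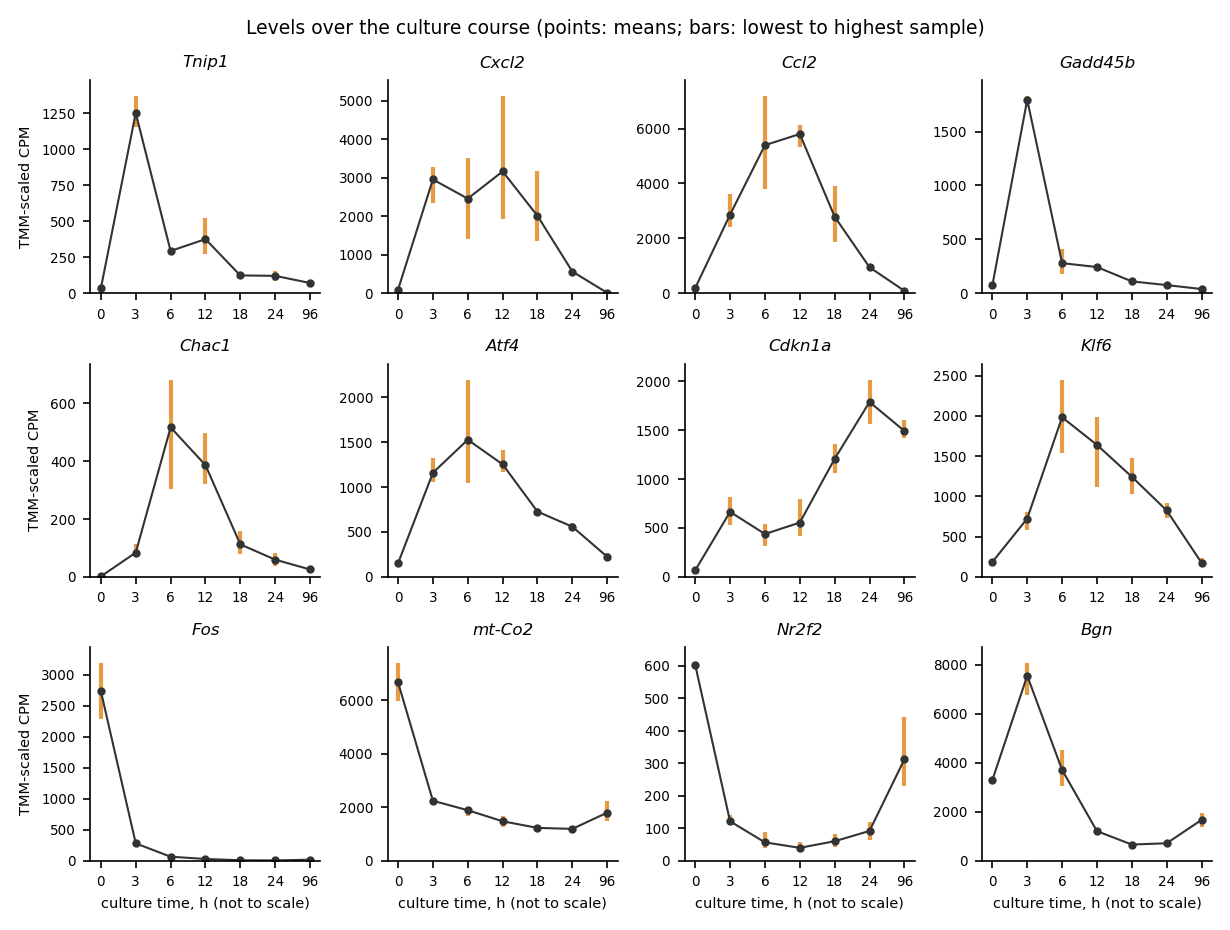
Mean level (points, TMM-scaled CPM on a linear axis) of 12 genes at 0, 3, 6, 12, 18, 24 and 96 h of culture, with bars from the lowest to the highest sample (2 samples at 0 and 24 h, 3 at the other times); the time axis is not to scale. Tnip1 and Gadd45b peak at 3 h, Chac1 and Klf6 peak at 6 h, and Fos and mt-Co2 are highest at 0 h.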

How the data were processed

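RNA of sorted mouse HSCs was sequenced from the 3′ end after 0, 3, 6, 12, 18, 24 and 96 h of culture in 19 samples. The file deposited by the authors holds unnormalized read counts, as whole numbers for each gene in each sample. The submitters' processing notes name STAR, StringTie and the build mm10; versions and the counting of shared reads are not given in the sources used here. Totals were 2073171 to 5094289 counts in the 5 samples compared, and precision follows from these depths. Every column was matched to a sample by its name. Where a symbol had more than 1 identifier, the identifier with the higher mean count was used.

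All 19 samples were fitted in edgeR 4.0.16 (R 4.3.3) with culture time as the only term, after filterByExpr and TMM scaling, and 3 h was tested against 0 h with the quasi-likelihood F test and Benjamini-Hochberg adjustment over 15138 genes. A gene was called when it changed more than 2-fold and its adjusted p was under 0.1. Standard errors are the log2 fold change divided by the square root of F. The fit was tested on simulated data, with changes set in genes at 10 CPM or more. It called 24 of 100 genes with a 4-fold change and 52 of 100 with a 16-fold change, all with the right sign, and made 3 false calls. A gene that was not called is therefore not shown to be unchanged. Alternatives were DESeq2 1.42.0, other scalings, no filter, the 5 samples alone, the replicate number or isolation date as a term, a stricter threshold, thinned counts and leaving out each library.

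Replicate numbers carry an isolation date in the labels, so that samples with the same number share a date. Mean correlation of their deviations from the group means was 0.014 over 51 pairs with the same number and -0.007 over 103 other pairs. Replicates 1 and 3 share a date and replicate 2 has its own, so changes within replicates 2 and 3 are changes within a date.

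Members, gene lists and motifs were chosen with earlier results of these data known. Genes named are list members, up to 6 called per list and direction first, with others where a list needs them, the 15 highest and 15 lowest fold changes at 30 CPM or more without overlap, the 5 lowest p per direction, and 9 genes that the study names. Nfkbia, Nfkb2, Nfkbie, Ddit3, Trib3, Yars, Aars and other list members beyond the first 6 were added after their values were seen. Promoters (250 bases before to 50 after the start) are from RefSeq on GRCm38.p6 and gene coordinates from GENCODE on GRCm38.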

Additional observations from a re-analysis of the deposited data

How the results depend on the processing

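Among 169 called genes picked by the naming rule, 168 (thinned counts) to 146 (the 5 samples alone) kept direction and call under the scalings, filter, thresholds and tools tried. Leaving out 1 library kept 117 (without 0 h replicate 2) to 149 (without 3 h replicate 3), and none of these genes turned direction under any alternative. Counts of genes called moved as follows. DESeq2 called 1595 genes, 1006 higher and 589 lower (63.1% higher), among 23243 tested, and 813 of the 841 called genes that it tested were called the same way. Over the libraries left out in turn, 580 to 765 genes were called, 468 to 598 higher and 85 to 167 lower, with 78.2% to 86.0% higher, where a lone 0 h library is assumed to vary like the other groups. With the replicate block, 614 genes were higher and 187 lower, 742 of the 844 calls were shared and 9 named genes lost their call (Bdkrb2, Ccng1, Ces1d, Gm26802, Klf5, Nfil3, Nr4a1, Phlda3 and Psmc4). When the block was fitted on the 2 complete pairs alone, edgeR called 0 genes (0 higher, 0 lower, smallest adjusted p 0.171, 1493 genes with an unadjusted p below 0.05). All 832 called genes tested there had the same sign, 666 with an unadjusted p below 0.05, but these pairs are among the libraries that gave the calls. Where a cause of these shifts is not given by fewer samples or genes, the cause was not tested. Depth limits low genes most: 3 counts were 1.51 CPM in the shallower 0 h library. No alternative scaling moved the median of all genes by more than 0.1 on the log2 scale.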

Other observations

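Single genes of the signalling lists also differed at 3 h. Hes1, the classical target of Notch and the called lower member of 12 Notch genes, was at 2584 and 2232 CPM at 0 h and at 806, 831 and 731 CPM at 3 h (3.05-fold lower, adjusted p = 0.0272, edgeR), and its call was lost without 0 h replicate 2. Among BMP genes, the ligand Bmp4 fell 3.49-fold from 168 and 230 CPM to 51.8, 56.1 and 62.7 CPM (adjusted p = 0.0157; call lost without 0 h replicate 3). Its target Id3 fell 2.44-fold from 2478 and 1722 CPM to 612, 1025 and 943 CPM (adjusted p = 0.0282), with the call lost without 0 h replicate 2 or 3 h replicate 1. For Hes1, Bmp4 and Id3 both fresh samples lay above every cultured sample. Other BMP ligands were called higher. Bmp2 had 233 and 178 CPM and then 584, 472 and 544 CPM (adjusted p = 0.00924, edgeR). Bmp10 had 324 and 305 CPM and then 735, 973 and 678 CPM (adjusted p = 0.0309, edgeR). Both calls depended on single libraries.

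Interferon response genes had 1 of 21 members higher, a share near the 4.19% of all genes tested, and 0 lower. The called gene, Irf1, went from 983 and 602 CPM to 2159, 1800 and 2143 CPM (2.57-fold, adjusted p = 0.0622), and its call was lost without 0 h replicate 3, 3 h replicate 1 or 3 h replicate 3. In the clock list, 3 of 17 genes were higher, and the number was 1 without 0 h replicate 3 and 1 without 3 h replicate 2.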
